A study of Rattus norvegicus with 15 samples.

Results

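Alas2 encodes the erythroid form of 5-aminolevulinate synthase, the first enzyme of heme synthesis, and its transcript is made almost only in developing red cells. Young red cells (reticulocytes) still carry Alas2 and globin mRNA when they circulate, so RNA from a tissue that holds blood contains these transcripts in proportion to the blood and to its share of young red cells. The olfactory epithelium lines the back of the nasal cavity over a lamina propria rich in vessels. Its olfactory sensory neurons (OSNs) each express 1 olfactory receptor (OR) gene and are replaced through life from basal cells. The data described here are 100 of the 41012 probes on the array. Among the probes that were detected everywhere and varied between arrays, they are those whose level fell most regularly as the level of Alas2 rose.

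RNA was hybridized to 15 one-colour Agilent rat arrays, each carrying the Cy3-labelled RNA of 1 olfactory epithelium from a Brown Norway rat aged 6 weeks. The 4 male rats (rats 1, 2, 5 and 6) gave 7 arrays and the 4 female rats (rats 3, 4, 7 and 8) gave 8, because the nostrils, labelled A and B, were profiled separately and only nostril A of rat 1 was included. No rat was treated or carried an engineered allele, the rats came from 2 suppliers, and the labels do not say which rat came from which, so suppliers are not analysed here. The arrays lay on 4 slides: slide 1 held 1A, 2A, 2B and 3A, slide 2 held 3B, 4A and 4B, slide 3 held rats 5 and 6, and slide 4 held rats 7 and 8. A whole epithelium was the unit measured, so fewer cells of a type and less RNA per cell cannot be told apart. The genes that define mature OSNs were strong everywhere: the summed level of 13 of them lay between 2224 and 3261 times the array median.

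The level of a probe is the log2 of its processed signal over the median signal of its array. Members were chosen among the 4135 probes that were well above background on all 15 arrays and had a standard deviation (SD) of at least 0.3 on this log2 scale. The 100 with the most negative Pearson correlation (r) with the Alas2 probe were taken. They belong to 99 gene names, since complement C1s is present with 2 probes, and all 100 passed the filter by construction. Their r ran from -0.99 to -0.57 with a median of -0.63, and these values describe the choice and carry no test. The last members inside the limit were RGD1309207 (now Ppp2r3c) with r = -0.576, XM_236746 with -0.575 and Ppp1r2 with -0.5744, and the first probes outside it were Daam2 with -0.5744, Ubap1 with -0.573 and AA901342 with -0.572. The limit of 100 therefore cut through a continuous run of values.

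Alas2 itself differed widely between rats, and between nostrils most in rat 7. On the log2 scale it stood at 8.51 in rat 1, 6.55 and 5.99 in nostrils A and B of rat 2, 5.23 and 5.37 in rat 3, and 8.60 and 8.91 in rat 4. It stood at 9.03 and 8.57 in rat 5, 9.69 and 9.68 in rat 6, 5.79 and 4.38 in rat 7, and 6.37 and 6.38 in rat 8. No array lay between 6.55 and 8.51, so the 15 arrays formed a lower set of 8 (rats 2, 3, 7 and 8) and an upper set of 7 (rats 1, 4, 5 and 6), each with both sexes in it. Among 10 other probes for red-cell genes detected on all arrays, beta-globin Hbb followed Alas2 with r = 0.997 and the anion exchanger Slc4a1 with 0.96. Rhced, Bpgm, Klf1, Nfe2 and Eraf, which encodes the alpha-globin stabilizing protein, lay between 0.90 and 0.93, and carbonic anhydrase Car1 at 0.60. Both probes of the Rhesus-associated glycoprotein Rhag stood apart, with r = -0.10 and -0.12.

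At r = -0.8 or lower lay 14 members, called the leading members here. The limit was drawn after the values were seen and marks no break in them. Below it the values lay closer together: 25 members had r of -0.7 or lower and 74 had -0.6 or lower. Few of the 14 are genes with a described product. Lss encodes lanosterol synthase of the sterol pathway, Adcy5 an adenylate cyclase, Sync the intermediate filament protein syncoilin, and RGD1305486 is now named Fam98a. RGD1309676 is now named Prxl2a, and 3 others are predicted transcripts resembling aldolase A (XM_221928), the RNA-binding protein LSM5 (LOC679753) and prohibitin (RGD1566197). LOC687154 resembles integrin alpha 9, BM986570 and AI013718 are expressed sequence tags, AABR03001498 is a stretch of genomic sequence, and A_44_P222954 is named only by its probe. A transcript known as a likeness of another gene can share sequence with that gene, so its signal cannot be assigned to 1 locus with certainty.

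The probes of Alas2 and of the 3 predicted transcripts are shown here because these members moved most closely against it. They are 60 bases long, and their positions are those of rat build rn3: Alas2 at chrX:39863822-39863881 (+), XM_221928 at chr12:11137428-11137486 (-), LOC679753 at chr16:1374648-1374707 (+) and RGD1566197 at chrX:53815564-53815623 (-). They are printed without capitals because no part of them is singled out.
Alas2: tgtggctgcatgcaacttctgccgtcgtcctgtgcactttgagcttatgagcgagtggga
XM_221928: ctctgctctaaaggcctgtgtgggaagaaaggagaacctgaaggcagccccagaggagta
LOC679753: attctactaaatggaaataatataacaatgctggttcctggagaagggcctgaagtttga
RGD1566197: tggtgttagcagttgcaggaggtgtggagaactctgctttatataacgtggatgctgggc

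XM_221928, the aldolase A-like transcript, moved most among the leading members. Its log2 level was 3.16 in rat 1, 3.03 and 2.73 in rat 4, 3.02 and 3.28 in rat 5 and 2.23 and 2.29 in rat 6. It was 4.75 and 4.99 in rat 2, 5.04 and 5.14 in rat 3, 5.07 and 5.48 in rat 7 and 4.61 and 4.49 in rat 8. The arrays of rats 1, 4, 5 and 6 were all below those of rats 2, 3, 7 and 8, the highest array exceeded the lowest 9.55-fold, and the level fell by 0.64 for each unit that Alas2 rose, both on the log2 scale. LOC679753, the LSM5-like transcript, had almost the same shape. It was at 2.74 in rat 1, 2.53 and 2.37 in rat 4, 2.69 and 2.88 in rat 5 and 1.68 and 2.13 in rat 6. It was at 4.02 and 4.34 in rat 2, 4.84 and 4.71 in rat 3, 4.45 and 4.64 in rat 7 and 3.79 and 3.84 in rat 8. Its arrays spanned 8.99-fold, again without overlap between those 2 sets of rats.

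**Figure D1:**
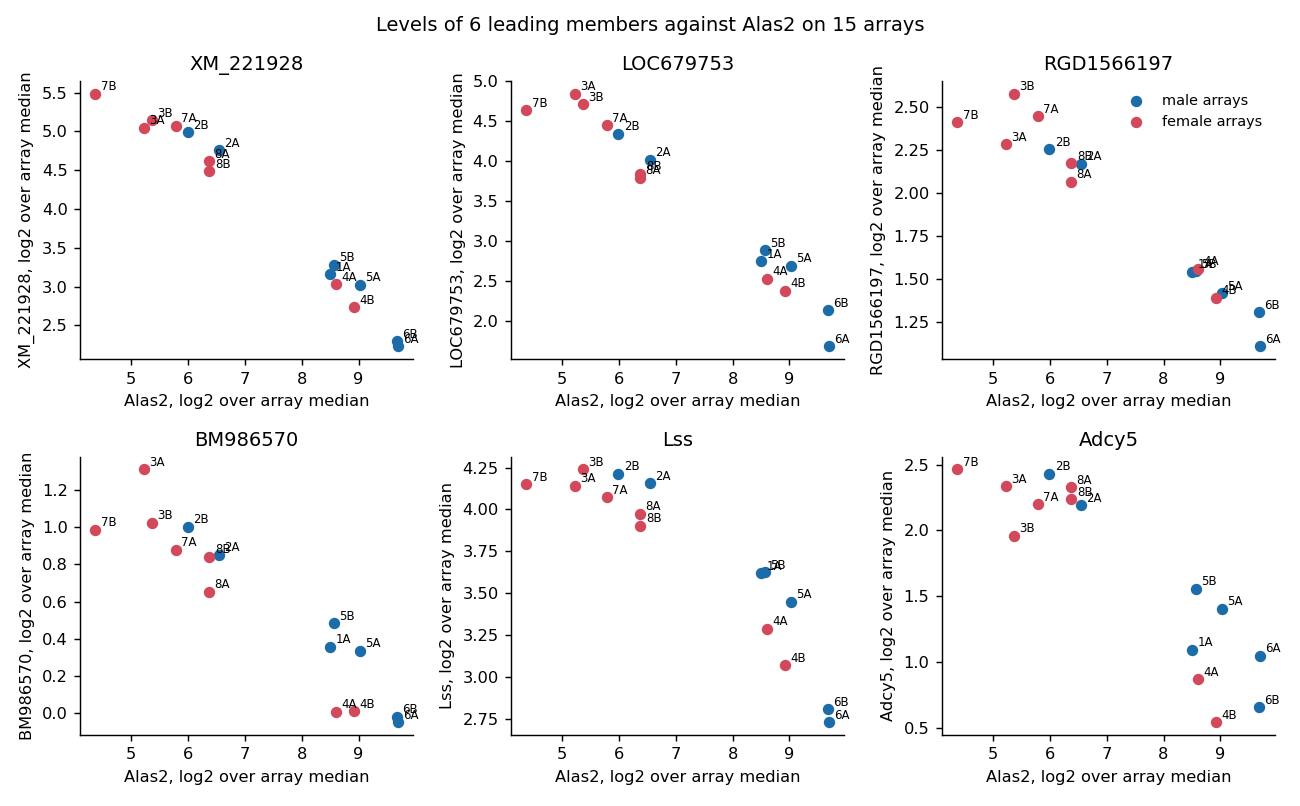
Each panel plots a member's log2 level against that of Alas2 (both over the array median) on the 15 arrays, 1 point an array, labelled by rat and nostril and coloured by sex. In all 6 panels the 7 arrays of rats 1, 4, 5 and 6 lie at the lower right, below the other 8 arrays.

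The other leading members moved far less, by 1.92-fold to 3.79-fold between their highest and lowest arrays. RGD1566197, the prohibitin-like transcript, was lowest at 1.11 in 6A, had a median of 2.06 and was highest at 2.58 in 3B. BM986570 ran from -0.05 in 6A through a median of 0.65 to 1.31 in 3A. Adcy5 was lowest in rat 4, at 0.87 and 0.54, and highest in 7B at 2.46, with 1.05 and 0.66 in rat 6. Lss was lowest in rat 6, at 2.73 and 2.81, and highest in 3B at 4.24, with 3.29 and 3.07 in rat 4. Sync, the weakest of the leading members, lay below the array median on all arrays but 3A, from -1.42 in 6A to 0.25 in 3A. What these transcripts shared was the order of the arrays: for 13 of the 14, all but AABR03001498, the 7 lowest arrays were the 7 arrays highest in Alas2. These 13 were also the only ones among the 4135 probes of the filter (0.314%), a count fixed by the same values that chose them.

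Because the arrays form 2 sets, the correlation was also taken within each. Over the 8 arrays lower in Alas2 the leading members had a median r of -0.66, from -0.91 to -0.23, and over the 7 higher arrays a median of -0.69, from -0.95 to -0.09. All 14 were below 0 on both sides of the gap. The same arrays chose the members, so these values describe the choice and support nothing beyond it. XM_221928 had r = -0.91 and -0.95 there, and LOC679753 -0.82 and -0.87. The other 86 members had medians of -0.11 and -0.37, with 48 and 74 of them below 0, where 43.2% and 47.3% of the probes of the filter were below 0. Each side holds arrays of 4 rats, and the nostrils of a rat share that animal.

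A shared nostril pair allows the same reading inside a rat. Alas2 differed most between the nostrils in rat 7, by -1.42 for B minus A, and XM_221928 differed by 0.42 in the opposite direction. In rat 2 the differences were -0.55 and 0.23, in rat 5 -0.45 and 0.26, and in rat 4 0.32 and -0.30. In these 4 rats, the ones with the widest gaps in Alas2, between 10 and 11 of the 14 leading members moved against Alas2, on arrays that the choice itself had used. In rats 3, 6 and 8, whose nostrils differed in Alas2 by 0.14, -0.02 and 0.01, the counts were 7, 11 and 4. Over all 100 members the counts in rats 7, 2, 5 and 4 were 60, 41, 51 and 68, where 58.3%, 47.9%, 48.0% and 52.3% of the probes of the filter moved against Alas2. In rats 3, 6 and 8 they were 30, 68 and 38, where 45.3%, 45.9% and 56.6% of the probes of the filter did.

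Some leading members lie on the strand opposite to a transcript that rose with Alas2. The search took, for each member, any detected probe on the array with a reverse-complement run of at least 30 bases or a start within 1000 bases on the other strand. A partner was found for 18 of the 100 members, beside 333 of the 4135 probes of the filter, and for 3 of the members (3% of members, against 16 of the 4135 probes of the filter, or 0.387%) the partner rose with Alas2 at r above 0.5. These limits were set after the values were seen, so the counts carry no test. The 2 clearest pairs are printed here, since the shared run is what ties member and partner together. Capitals mark the run whose reverse complement stands in the other probe. AI013718 lies at chr10:15585629-15585873 (+), and its partner LOC287167, annotated as an alpha globin, at chr10:15560180-15560237 (-), where the run of 45 bases therefore lies in a separate copy of the sequence. LOC687154 lies at chr8:123858783-123858842 (+) and its partner BM390141, an expressed sequence tag, at chr8:123858769-123858828 (-), with a run of 46 bases over the same position.
AI013718: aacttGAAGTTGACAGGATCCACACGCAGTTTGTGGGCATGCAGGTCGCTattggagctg
LOC287167: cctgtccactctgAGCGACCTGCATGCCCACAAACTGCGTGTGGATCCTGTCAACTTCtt
LOC687154: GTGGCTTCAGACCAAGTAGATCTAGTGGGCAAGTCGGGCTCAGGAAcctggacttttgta
BM390141: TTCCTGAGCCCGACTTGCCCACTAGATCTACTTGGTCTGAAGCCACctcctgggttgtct

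The alpha-globin partner LOC287167 was among the strongest signals of the array, with a mean log2 level of 12.3. It rose from 10.63 in 7B to 13.28 in 6B and had r = 0.97 with Alas2. AI013718, read on the other strand, was weak, from 0.61 in 6A to 1.92 in 2B, and had r = -0.91 with Alas2 and -0.83 with its partner. Its second probe, A_44_P296478, which starts 263 bases away on the same strand, was far stronger, with a mean of 8.27, and had r = -0.24. LOC687154 ran from 2.61 in 6B to 3.79 in 7B, while BM390141 ran from -1.71 in 8B to -0.02 in 1A with r = 0.80 with Alas2 and -0.69 between the 2 probes. The third pair has no shared run: BQ207336 lies 138 bases from AW916637 on the other strand of chromosome 2. There the member had r = -0.74 and AW916637 had 0.72, with -0.50 between them. AABR03001498, the other leading member near a globin, lies on the plus strand of chromosome 1, 4887 bases from the probe of the globin MGC72973 on the minus strand, which had r = 0.99. The strand that the labelled RNA of a member came from was not tested.

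**Figure D2:**
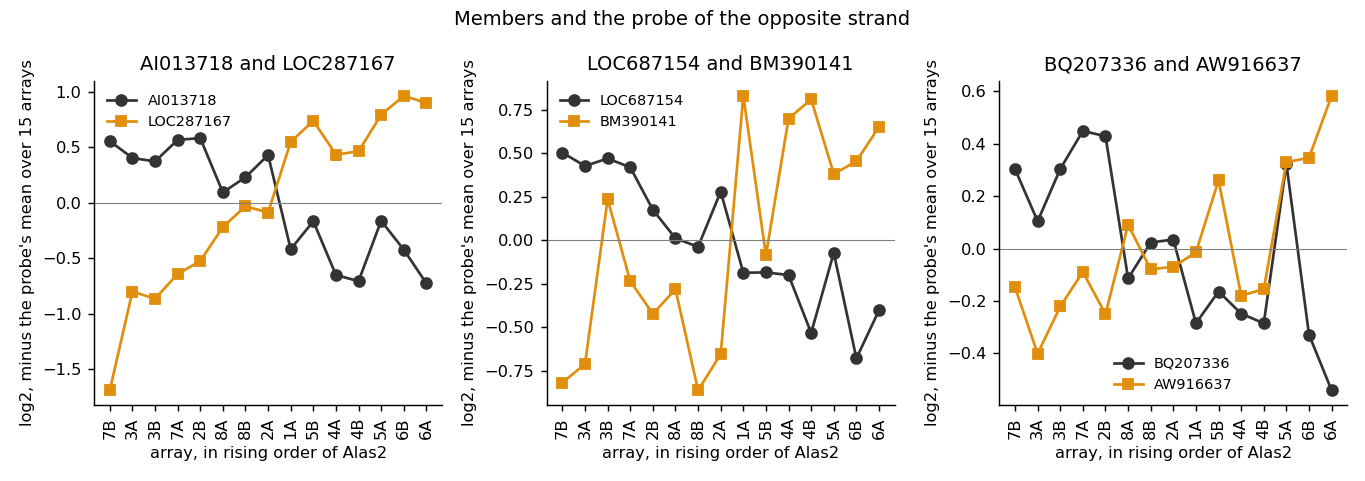
Each panel gives a member and the probe of the opposite strand on the 15 arrays, ordered by rising Alas2, as log2 level minus the probe's own mean. LOC287167 climbs from left to right while AI013718 drops by a smaller amount. BM390141 and AW916637 rise less regularly.

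How far the members depend on single rats was read by choosing 100 probes again without a rat and looking at the rat left out. A probe counts when it lies, in that rat, on the side of its mean over the other rats opposite to Alas2. Of the 100 chosen each time, 77, 64 and 56 did so in rats 1, 2 and 3, 13 in rat 4, and 58, 63, 75 and 67 in rats 5 to 8. Among all probes of the filter the shares were 62.2%, 54.3%, 40.3%, 50.9%, 53.0%, 49.6%, 52.4% and 59.7%. The exception was rat 4, a female high in Alas2, where the 100 probes chosen without it lay on the same side as Alas2 far more often than against it. The first 14 of each choice behaved otherwise: 14, 14, 13, 10, 13, 14, 12 and 13 of them lay opposite to Alas2 in rats 1 to 8. Summed over the rats, that was 103 of 112 (92.0%) for the first 14 and 370 of 688 (53.8%) for the rest, beside 52.9% of all probes of the filter.

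**Figure D3:**
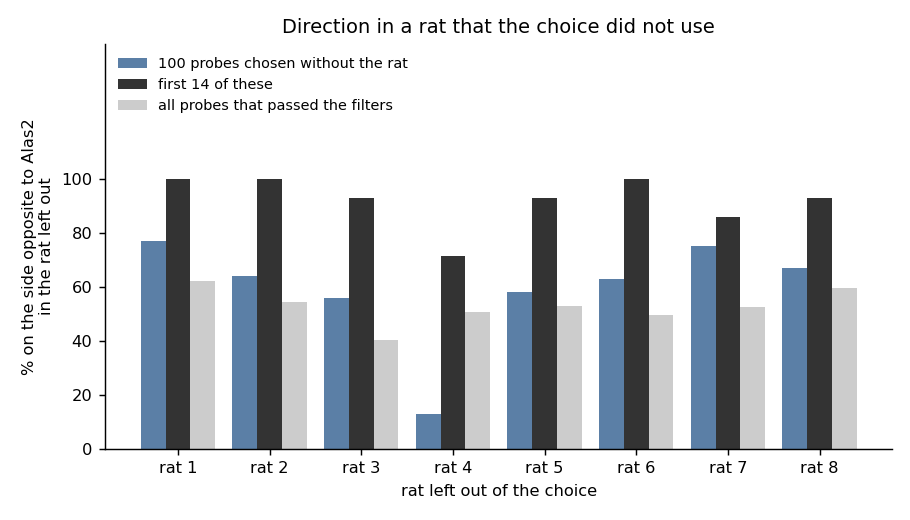
For each rat left out of the choice, bars give the percentage of probes that lay on the side opposite to Alas2 in that rat, for the 100 probes chosen, the first 14 of them, and all probes that passed the filters. The bar of the 100 falls to 13% in rat 4, while that of the first 14 stays above the grey bar in every rat.

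The correlation was also taken after centring every probe on the mean of its slide, again on the arrays that chose the members. When 100 probes were chosen anew from the centred values, 9 of the 14 leading members and 12 of the other 86 were among them. The leading members had r between -0.97 and -0.82 with Alas2 (median -0.90), and the other 86 had a median of -0.51, with Eea1 at 0.01 as the highest. Centring on sex gave medians of -0.93 and -0.50, and the 8 rat means -0.94 and -0.72. Over all 4135 probes of the filter these medians lay between -0.02 and 0.03. Taking the mean of the 10 other red-cell probes in place of Alas2 gave -0.85 and -0.62.

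**Figure D4:**
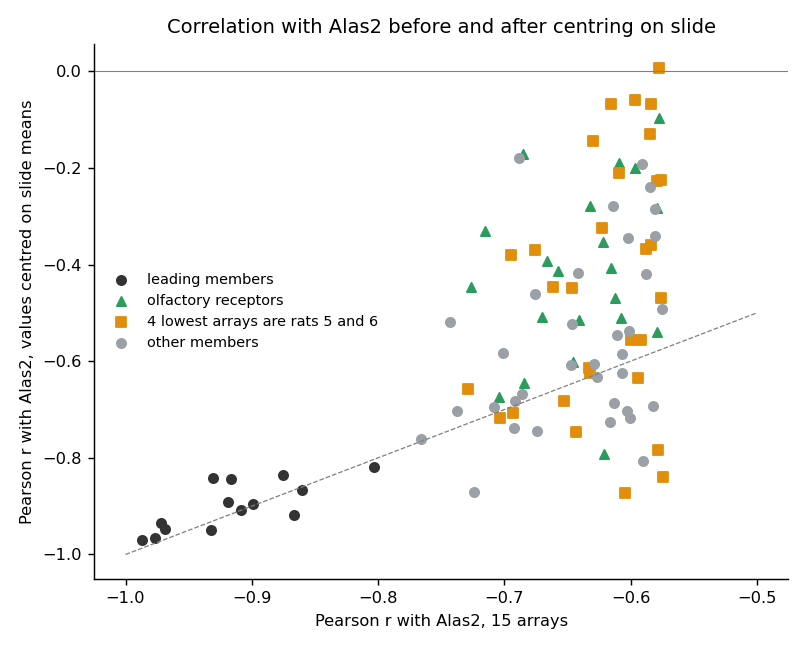
Each point is 1 of the 100 members, placed by its Pearson r with Alas2 over 15 arrays (x axis) and by r after both were centred on slide means (y axis). The dashed line marks equal values. The leading members stay near it, while many of the others rise towards 0.

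A large share of the remaining members was low in rats 5 and 6 rather than in every rat rich in Alas2. For 31 members the 4 lowest arrays were the 4 of these males, beside 185 of the 4135 probes of the filter (4.47%). Arrays 6A, 6B and 5A were the 3 highest in Alas2, so a count above that share is built in by the choice. Both rats were on slide 3 and nothing else was, so these rats and their slide cannot be told apart. The median signal of these 4 arrays, from 57.4 to 61.4, was below that of every other array, from 65.0 to 83.4, and 6A and 6B had the fewest probes well above background, 26548 and 26233. The part of signal strength in these members' values was not tested. Chrna7, the alpha 7 subunit of the nicotinic acetylcholine receptor, was 1 of them. It stood between 2.38 and 2.60 in rats 5 and 6, at 3.00 in rat 1, and between 3.57 and 3.90 in rats 2, 3, 4, 7 and 8. Rat 4, with Alas2 at 8.60 and 8.91, was at 3.77 and 3.90 for Chrna7, above rats 5 and 6 by more than 1 on the log2 scale. Fndc5, the precursor of irisin, lay between 1.87 and 1.96 in rats 5 and 6 and between 2.56 and 2.96 elsewhere. Slc24a5, a sodium-calcium exchanger of pigment granules, lay between 0.57 and 0.83 there and between 1.22 and 1.73 elsewhere. Sh3bgrl lay between 0.62 and 0.74 there and between 1.07 and 1.72 elsewhere, and Npat, a coactivator of histone genes, between 1.47 and 1.81 there and between 2.11 and 2.72 elsewhere. Ifi44, an interferon-induced gene, lay between 1.65 and 1.89 there and between 2.04 and 2.67 elsewhere. It was the only member among 20 detected probes of the interferon response list, whose median r was -0.09. Insig2 and Ggps1, a regulator of sterol synthesis and an enzyme of isoprenoid synthesis picked after the values were seen, belonged to these 31 as well. Insig2 was at 0.41 to 0.58 in rats 5 and 6 and 0.91 to 1.41 elsewhere, and Ggps1 at 0.25 to 0.58 and 0.83 to 1.36. After centring on slide, r was -0.07 for Insig2 and -0.56 for Ggps1, beside -0.84 for Lss.

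**Figure D5:**
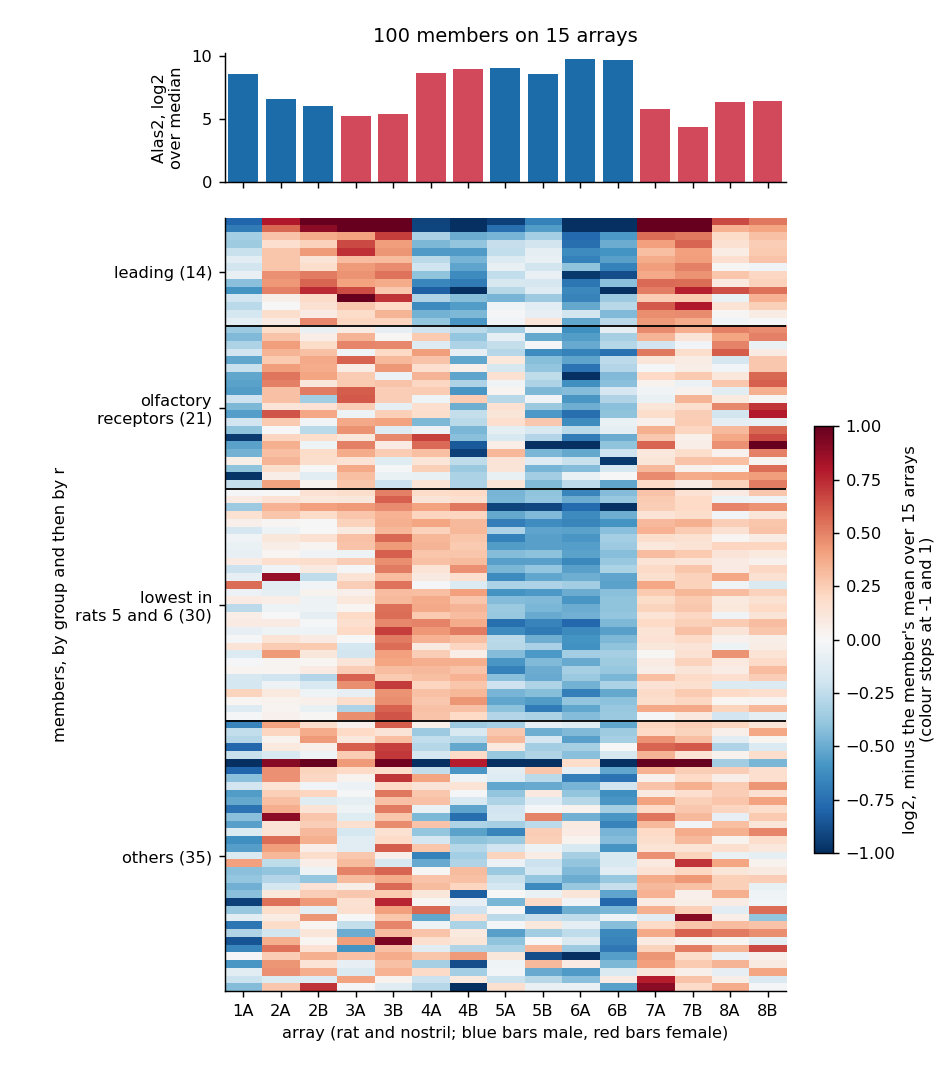
The bars give the log2 level of Alas2 on the 15 arrays, and the grid gives the 100 members as log2 level minus the member's mean, in 4 blocks: 14 leading members, 21 ORs, 30 further members whose 4 lowest arrays were rats 5 and 6, and 35 others. The leading block is mostly blue in rats 1, 4, 5 and 6, and the third block is lowest in rats 5 and 6, with paler blue cells on some other arrays.

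ORs made up 21 of the 100 members, beside 471 of the 4135 probes of the filter (11.4%). ORs are the most numerous gene family of the genome, and the level of each in a whole epithelium depends on how many neurons chose it. None was among the leading members. Their r ran from -0.73 to -0.58 and their slide-centred r from -0.79 to -0.10 with a median of -0.41. The strongest were Olr1557 (now Or5h17c), with a lowest, median and highest array of 5.33, 5.94 and 6.52, and Olr1555 (now Or5h17b), with 4.59, 5.22 and 5.71. The widest range was that of Olr633 (now Or4c31), from -1.17 in 6A through -0.08 to 1.02 in 8B. Olr1690 ran from 1.45 in 6A through 2.63 to 3.05 in 8B. Of the 21 ORs, 14 were lowest in rat 6 and 11 in 6A alone, and 42 of all 100 members were lowest in 6A. This array was the highest in Alas2, so low members there are built in by the choice. The median over the 21 ORs was -0.03 in 6A and 0.27 in 6B, and between 0.20 in 5B and 1.31 in 8B on the other arrays. Over all detected OR probes the median was 0.37 in 6A and lay between 0.15 and 0.80 across the arrays.

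OR genes lie in clusters throughout the genome, and so did the OR members. On chromosome 3 they were 11 of 136 OR probes of the filter, on chromosome 11 they were 4 of 20, on chromosome 20 they were 3 of 26, and 1 each lay on chromosomes 7, 9 and 17, of 35, 3 and 4. In rn3, Olr1549, Olr1555, Olr1557 and Olr1563 lay within 347 kb at chr11:42246878-42593879. The other 4 OR probes detected there on all arrays, which were not members, had r from -0.57 to -0.23 with a median of -0.31. Olr633, Olr634, Olr637, Olr639 and Olr640 lay within 169 kb at chr3:72259195-72427857, where the 1 other detected OR probe had r = -0.53. Olr1689, Olr1690 and Olr1692 lay within 78.0 kb at chr20:558733-636726, where the 1 other had r = -0.44. Olr703 and Olr687 shared a stretch of 314 kb on chromosome 3 whose 6 other OR probes had a median of -0.27, with 5 below 0. Olr766, Olr781 and RGD1561276 shared one of 489 kb whose 14 others had a median of -0.26, with 12 below 0. The stretches were drawn around members after the values were seen, so these values carry no test. Neighbouring ORs are often close paralogs, and how far their probes share targets was not tested. Over the 620 detected OR probes the median r was -0.08, beside -0.05 for all 25085 detected probes. Olr529, Olr1653, Olr639 and Olr703 lay between -1.72 and 1.11 on all arrays, Olr1563 between 0.33 and 1.39, and Olr766 (now Or4k44) between 0.87 and 1.87.

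Some members encode matrix, secreted or immune proteins, and they were picked for description after the values were seen. Mgp, matrix Gla protein, a calcification inhibitor of cartilage and vessels, was the strongest member of all, with a mean of 8.85. It was 7.99, 8.70 and 9.21 (lowest, median and highest) over the 7 male arrays and 8.75, 8.95 and 9.79 over the 8 female arrays. Lox, lysyl oxidase, which cross-links collagen and elastin, was 3.99, 4.45 and 5.18 in males and 4.67, 4.84 and 5.44 in females. The sexes overlapped in both genes. Mfap5, a component of microfibrils, was at 3.13 in rat 1, 3.34 in 4B and 3.40 in 6B, and its other arrays lay up to 4.38 in 2A. C1s, a protease of the complement cascade, was lowest in rat 1 with both probes, at 3.82 and 1.75, and the probes followed each other with r = 0.95. Cilp2, a cartilage matrix protein, ran from 1.12 to 2.77. Wnt5a, a signalling ligand, ran from -1.58 to -0.42 and Fcer1a, the IgE receptor chain of mast cells, from -0.97 in rat 1 to 0.50 in 3B. A fixed list of collagen, matrix and fibroblast genes did not move this way as a whole. Its 27 detected probes had a median r of -0.05, beside -0.05 for all detected probes, and Lox and Mgp were its only members. The summed level of its 17 genes lay between 3270 and 8092 in males and between 2688 and 5670 in females, with r = 0.04 with Alas2.

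Rpl10l, a ribosomal protein L10-like transcript, had the widest range of all members, 12.97-fold, and was not an orderly follower of Alas2. It stood at -1.34 in 4A and 1.22 in 4B, and at 0.63 in 6A and -0.67 in 6B. The nostrils of these rats thus differed in opposite directions. Its highest array was 7B, the array lowest in Alas2, at 2.36.

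Between the sexes, Alas2 was lower in females by 1.94 (SE 0.88) on the log2 scale, a difference that did not pass the test (adjusted p = 0.302, limma over 4 against 4 rats). Members were chosen against Alas2, so a tilt the other way is built into them. Of the 100, 99 were higher in females, beside 14400 of all 27625 tested probes (52.1%). At an unadjusted p under 0.05, 46 were higher in females, against 3376 of all 27625 tested probes (12.2%). Counted in either direction, the 46 members became 74 without rat 2 and 35 without rat 3 or rat 6. Over all 27625 tested probes that count was 4731 with every rat. It was 4576 without rat 2, 3639 without rat 3 and 4118 without rat 6. After Benjamini-Hochberg adjustment over all tested probes, 1 member passed at a false discovery rate of 1%, where 12 of all probes did (0.0434%). It was Eif2s3x, the X-linked gamma subunit of translation initiation factor 2. Its mean was 3.29 ± 0.06 in males and 3.97 ± 0.07 in females (SD, n = 4 rats each), a difference of 0.69 (SE 0.06, adjusted p = 0.0027 by limma). Its lowest female array was at 3.90 and its highest male array at 3.43, so the sexes did not overlap, rat 4 with its high Alas2 included. Its 2 other probes had r = -0.57 and -0.44 with Alas2 and followed the member with r = 0.98 and 0.96. With any single rat other than rat 8 left out the call was lost and no member passed, and none passed by the methods' t-test.

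Every female array was above every male array for 12 members, Eif2s3x included, beside 87 of the 4135 probes of the filter (2.1%), and 10 of the 12 were among those lowest in rats 5 and 6. Insig2 was barely so, with 1.04 as its highest male and 1.05 as its lowest female array. Fndc5 had 2.61 and 2.80, Ptpmt1, a phosphatase of mitochondria, 4.82 and 4.98, and Efcab2 6.29 and 6.36. BG374488, an expressed sequence tag, had 1.58 and 1.90. Their adjusted p-values other than that of Eif2s3x lay between 0.059 (BG374488) and 0.165 (limma).

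Between nostrils A and B no member passed the test, and no probe of 27574 did (0%), in limma with the rat as a block over 7 rats. At an unadjusted p under 0.05 there were 8 members and 1623 probes. No member's nostril difference depended on sex either (0% of all probes), with 3 members and 652 probes at an unadjusted p under 0.05. The F-test for differences between rats of 1 sex passed 18 members at a false discovery rate of 1%, beside 768 of 27574 probes (2.79%). The rule kept probes that follow a gene differing between rats, so this count describes the choice. Every rat but rat 3, whose nostrils were on slides 1 and 2, lay within a single slide. With slide as a random block 12 members and 148 probes passed. Among the 14 leading members 12 passed, all but Sync and AABR03001498, and among the other 86 only 6: Fcer1a, Chrna7, TC557674, Fndc5, Phf13 and Ppp1r2. In limma, XM_221928 had F = 105 (adjusted p = 8.75e-05) and Alas2 itself 38.0 (adjusted p = 0.000792).

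Second probes of the same genes were not chosen by their own values, although they share the RNA and the arrays. For 20 member genes, 22 such probes were detected on all arrays and were not members. Their r with Alas2 had a median of -0.28, from -0.70 (RGD1563395) to 0.24 (Insig2), beside -0.05 for all detected probes. Of the 22, 6 were below -0.5 and 18 below 0, where 9.48% and 56.2% of all detected probes were. Among leading members, the second probe of RGD1305486 had r = -0.52, that of LOC687154 -0.46 and that of AI013718 -0.24, all weaker than the member. The second Lox probe had -0.35, the second Npat probe 0.21 and the second Insig2 probe 0.24. RGD1308321 and RGD1310093 also had a second probe above 0, at 0.19 and 0.09.

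Fixed lists of genes for the cell types of the tissue were set beside Alas2 as well. The summed level of 10 red-cell genes lay between 251 and 1624 in males and between 122 and 1079 in females. The 18 detected probes of the mature OSN list had a median r of -0.28 and none was a member. Their summed level had r = -0.32 with Alas2, and the ranges of the sexes overlapped, 2291 to 2636 in males and 2224 to 3261 in females. Neutrophil and monocyte genes had a median r of 0.28, sustentacular cells -0.26, basal and dividing cells -0.02, endothelium -0.02 and bone and cartilage 0.04, and none of these lists held a member. The filter on SD left 0 probes of the sustentacular list and 1 of the mature OSN list, so these lists could hardly have held one. The part of cell composition in the members' values was not tested.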

How the data were processed

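Per the labels and the study's methods, the authors dissected the olfactory epithelium of each nostril, extracted its RNA, amplified and labelled it with Cy3 and hybridized it to a one-colour Agilent rat array of 60-base probes. The intensity values used here are the processed signals in the deposited scanner files, which per the file headers were made with Agilent Feature Extraction 9.5.1.1 after subtraction of background. A second file deposited by the authors holds ratio values, each signal over the median of its array and then over the median of its gene, which was used only as an alternative.

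Spots marked as outliers were left out, spots of a probe were averaged, each array was divided by its median over non-control probes, values under 0.1 were set to 0.1, and log2 was taken. Array medians ran from 57.4 to 83.4 signal units, and the number of arrays limits the precision. Members were chosen as the report describes. The members, gene lists and tests were chosen with earlier results of these data known. Sexes were compared in limma on the 8 rat means, nostrils with the rat as a block, and rats of 1 sex by an F-test, over probes well above background on at least 7 arrays and with Benjamini-Hochberg adjustment over all of them. The rats are separate animals, while the nostrils of a rat share it. The study's methods used a t-test, and a t-test on the 8 rat means was run here as an alternative. Genes were to be named for the 5 lowest r, the 25 lowest r with a symbol, members on the fixed lists, the 3 probes on each side of the limit, the red-cell probes and members called between sexes or nostrils. Other genes in the text were chosen after their values were seen, and some members are not reported here by name. Positions and names are those of the files (rn3), with 49 probes given a current RefSeq symbol from the GRCr8 table, and probe sequences are those of the files. Scripts were tested on simulated data. The software was Python 3.11.15, numpy 2.4.6, pandas 2.3.3, matplotlib 3.10.9, R 4.3.3, limma 3.58.1 and statmod 1.5.0.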

Additional observations from a re-analysis of the deposited data

Results flagged for a closer look

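Of 68 groups of 4 rat means checked (34 named members in each sex), 3 held a rat far from the others, all in females, and chance flags about 1 in 20 such groups. For Adcy5, the mean of rat 4 was 0.70 on the log2 scale while the other 3 females lay between 2.15 and 2.33, a gap of 0.886 of the whole range. For Mfap5, rat 4 was at 3.50 and the others between 4.11 and 4.22, a gap of 0.846 of the range. Rat 4 was also the female highest in Alas2. For Chrna7, rat 7 was at 3.59 and the others between 3.82 and 3.84, a gap of 0.929 of the range, with rat 4 not standing apart.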

How the results depend on the processing

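Choosing the 100 again kept 31 members with normexp background correction, 66 with Spearman's rho, 64 on the 8 rat means, 21 after centring on slide, 35 after centring on sex, 14 without a minimum SD and 8 with a minimum of 0.5. Leaving out 1 array kept 63 to 89, and leaving out 1 rat 43 (rat 4) to 85. The median r of the members moved to -0.74 on rat means, -0.56 after centring on slide and -0.53 after centring on sex, and ran from -0.77 (without rat 4) to -0.54 (without rat 6). Members called between the sexes numbered 2 (Eif2s3x and BG374488) with slide or with rat as a random block, beside 34 and 21 probes. They numbered 0 by the t-test on the 8 rat means, beside 8 probes. With 1 rat left out they numbered 0 to 1, beside 9 to 10 probes. Members called between rats of 1 sex numbered 38 at a false discovery rate of 5%, beside 4442 of 27574 probes. With 1 rat left out, the count at 1% ran from 11 (without rat 2 or rat 4) to 25 (without rat 3). Over all probes it was 386 without rat 2, 389 without rat 4 and 896 without rat 3. The median r of second probes ran from -0.33 (without rat 3) to -0.21 (without rat 6). Of 1122 values of r for the 34 named members, 887 stayed within the spread, 235 moved and 0 changed sign. These settings reuse the arrays that chose the members, so the lack of a change in sign is largely built in. The causes were not tested. No paired analysis was possible because, between the sexes, the rats share no replicate numbers. Nostrils were compared within rats. Signal over background limits the weak members, such as Sync.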
